A study of Mus musculus with 12 samples.

Results

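Transcripts of 8 costimulatory and TNF-binding receptor genes were followed in mouse natural killer (NK) cells with and without the microRNA cluster Mirc11. The genes were Tnfrsf9, Tnfrsf18, Tnfrsf4, Cd27, Tnfrsf1a, Tnfrsf1b and Tnfrsf11b, all of the TNF receptor family, and Icos, of the CD28 family. They were taken by gene symbol and were 8 of the 50674 genes in the table; all 8 passed the filter on low counts and were among the 17457 genes tested. The cells were splenic NK cells of C57BL/6 mice expanded with IL-2, and so all 4 groups had been exposed to that cytokine. Cells of wild-type and of Mirc11-/- genotype were taken untreated (unstimulated) or after 6 h of stimulation through NKG2D, an activating receptor of NK cells, with 3 biological replicates per group. The labels do not say how the Mirc11 allele was made, whether animals were pooled or how NKG2D was engaged. The comparisons ask how these receptor transcripts respond to NKG2D and whether the cluster changes that response or the resting level.

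Receptors of the TNF family bind trimeric ligands of the TNF family and pass the signal on through TRAF adaptor proteins or, in receptors that carry a death domain such as Tnfrsf1a, through TRADD, RIPK1 and caspase-8. Their engagement typically turns on NF-kB and survival genes. Tnfrsf9 (4-1BB), Tnfrsf18 (GITR), Tnfrsf4 (OX40) and Cd27 are costimulatory receptors of T and NK cells, Tnfrsf1a and Tnfrsf1b are the pair of receptors for TNF, and Tnfrsf11b encodes osteoprotegerin, a secreted decoy that binds the ligands encoded by Tnfsf11 and Tnfsf10. Icos binds the ligand encoded by Icosl and signals mainly through phosphatidylinositol 3-kinase (PI3K). In mouse NK cells Cd27 marks stages of maturation, and 4-1BB is known as a receptor of activated cells.

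The 3 microRNAs of the Mirc11 cluster are printed first. The sequences that set which transcripts these microRNAs can pair with are the seeds, bases 2 to 8 from the 5′ end, shown in capitals in the mature sequences from RefSeq (GRCm38.p6, plus strand, chr8:84208563-84208583, chr8:84208727-84208747 and chr8:84208875-84208896).
mmu-miR-23a-3p: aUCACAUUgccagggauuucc
mmu-miR-27a-3p: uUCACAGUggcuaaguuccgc
mmu-miR-24-3p: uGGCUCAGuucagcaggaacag
The seeds of miR-23a and miR-27a are equal at 6 of 7 positions, and neither shares a position with the seed of miR-24. The matching words in a transcript are AATGTGA for miR-23a, ACTGTGA for miR-27a and CTGAGCC for miR-24, and they occur in the 3′ untranslated regions of 15.1%, 16.0% and 16.2% of 21001 annotated mouse genes.

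Of the 8 receptor genes, 3 carried at least 1 such word in the 3′ untranslated region, a share of 37.5% against 36.5% of all genes. The sites are printed with the word in capitals, in the sense of the transcript (GRCm38).
Tnfrsf9, miR-27a word, chr4:150945769-150945798, plus strand: aagggacaaagcACTGTGAggtggggaaca
Tnfrsf1b, miR-27a word, chr4:145214914-145214943, minus strand: tccgggttaggcACTGTGAgttggaacagc
Tnfrsf1b, miR-24 word, chr4:145214379-145214408, minus strand: ttgttttgtacaCTGAGCCctggctgagcc
Tnfrsf1b, miR-24 word, chr4:145214368-145214397, minus strand: actgagccctggCTGAGCCaccccacccca
Tnfrsf1a, miR-24 word, chr6:125362162-125362191, plus strand: gccgaggactgcCTGAGCCagccacttgtg
The pair of miR-24 words in Tnfrsf1b begin at bases 1391 and 1402 of an untranslated region of 2324 bases, and the lower of the pair as well as the word in Tnfrsf1a are followed by an A. No word was present in the untranslated regions of Tnfrsf18, Tnfrsf4, Tnfrsf11b, Cd27 and Icos, which span 360, 180, 1375, 688 and 2606 bases. A word is a description of sequence and not a measured site, and no group of genes with or without words was tested.

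The genes lie on 4 chromosomes (GRCm38). Tnfrsf4 (ENSMUSG00000029075, chr4:156013843-156016612, plus strand) and Tnfrsf18 (ENSMUSG00000041954, chr4:156026164-156028895, plus strand) are neighbours, 9551 bases apart with 0 protein-coding genes between them. Tnfrsf9 (ENSMUSG00000028965, chr4:150914562-150946102, plus strand) and Tnfrsf1b (ENSMUSG00000028599, chr4:145213463-145246870, minus strand) are on the same chromosome, 5667691 bases apart with 75 protein-coding genes between them. Cd27 (ENSMUSG00000030336, chr6:125232622-125237010, minus strand) and Tnfrsf1a (ENSMUSG00000030341, chr6:125349362-125362484, plus strand) are 112351 bases apart with 3 protein-coding genes between them. Tnfrsf11b (ENSMUSG00000063727) lies at chr15:54250619-54278484 on the minus strand and Icos (ENSMUSG00000026009) at chr1:60977927-61000320 on the plus strand. The antisense gene Gm16008 covers 414 of the 1524 exon bases of Tnfrsf18, 27.2%, and the microRNA gene Mir8113 lies within 129 exon bases of Cd27. Without a stated strand setting reads of Tnfrsf18 and Gm16008 cannot be told apart where they overlap; Gm16008 had group means of at most 0.788 CPM, where Tnfrsf18 had 33.3 CPM in stimulated wild-type cells.

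The RefSeq promoters of 3 genes, 250 bases before and 50 after the start, are printed because Cd27 and Tnfrsf1b rose on stimulation whereas Tnfrsf9 did not pass the test; capitals mark matches to the NF-kB word GGGNNNNNCC on either strand (GRCm38.p6, each printed in the sense of its gene).
Cd27, chr6:125236978-125237277, minus strand: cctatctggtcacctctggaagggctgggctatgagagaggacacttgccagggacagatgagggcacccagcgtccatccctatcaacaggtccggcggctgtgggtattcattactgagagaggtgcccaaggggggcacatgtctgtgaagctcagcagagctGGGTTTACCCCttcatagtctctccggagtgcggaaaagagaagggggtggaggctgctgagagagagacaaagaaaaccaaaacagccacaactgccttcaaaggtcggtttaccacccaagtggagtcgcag
Tnfrsf1b, chr4:145246821-145247120, minus strand: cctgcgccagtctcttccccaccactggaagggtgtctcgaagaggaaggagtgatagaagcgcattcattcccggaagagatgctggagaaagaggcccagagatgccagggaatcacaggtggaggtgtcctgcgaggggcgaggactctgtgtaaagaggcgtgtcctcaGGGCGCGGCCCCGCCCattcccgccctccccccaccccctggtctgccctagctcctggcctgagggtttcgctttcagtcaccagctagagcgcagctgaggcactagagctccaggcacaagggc
Tnfrsf9, start nearer the gene's end, chr4:150927749-150928048, plus strand: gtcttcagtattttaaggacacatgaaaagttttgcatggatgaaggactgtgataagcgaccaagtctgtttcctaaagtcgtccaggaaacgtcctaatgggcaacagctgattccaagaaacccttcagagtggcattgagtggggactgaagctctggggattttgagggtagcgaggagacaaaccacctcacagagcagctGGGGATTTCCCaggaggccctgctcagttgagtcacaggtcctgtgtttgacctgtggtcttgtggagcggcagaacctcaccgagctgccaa
The word matches overlap within each promoter and begin, counted from the start site, at -84 and -83 in Cd27, at -77, -76 and -71 in Tnfrsf1b and at -43 and -42 in Tnfrsf9. The last promoter also holds 1 match to the AP-1 word TGANTCA, apart from the NF-kB word. Of all 32851 RefSeq promoters of this length 50.8% hold the NF-kB word and 7.81% the AP-1 word, searched on both strands, so that a match by itself separates few genes. Tnfrsf1a had 1 match at -216, and Tnfrsf18, which also rose, had none in this window, nor had Tnfrsf4 and the other start of Tnfrsf9. The promoters of Icos and Tnfrsf11b were missing from the sequences supplied and were not searched.

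Library totals ranged from 15139281 to 25342991 counts. As a check of the genotype labels, the precursor row Mir27a was counted 2, 3 and 3 times in the unstimulated and 1, 0 and 4 times in the stimulated wild-type libraries and 0 times in all 6 Mirc11-/- libraries, while Mir23a was at 0 throughout and Mir24-2 had 1 count in 1 wild-type library. The 8 NK cell markers were Ncr1, Klrb1c, Klrk1, Eomes, Tbx21, Itga2, Prf1 and Gzmb. They summed to 9524 to 11638 CPM (the count level after TMM scaling of library sizes) in unstimulated and 6436 to 7737 in stimulated wild-type libraries. In Mirc11-/- libraries the sum was 10464 to 11384 unstimulated and 3399 to 5502 stimulated. On stimulation 2 of the 8 rose and 6 fell in wild-type cells, and 1 rose and 6 fell in Mirc11-/- cells. Over all tested genes 16.1% rose and 15.7% fell in wild-type cells, and 23.5% rose and 22.1% fell in Mirc11-/- cells. Background reads differed as well: 548 vomeronasal receptor genes, which NK cells are not known to use, summed to 13.6 to 17.4 and 14.6 to 17.0 CPM in the unstimulated wild-type and Mirc11-/- groups, 24.8 to 41.5 in stimulated wild-type and 49.1 to 85.4 CPM in stimulated Mirc11-/- libraries. Replicate 1 stood apart in both stimulated groups. Its counts differed from replicates 2 and 3 with a chi-square per gene of 49.0 and 40.9 in the stimulated Mirc11-/- group, where replicates 2 and 3 differed by 5.22, and of 30.1 and 36.5 in the stimulated wild-type group, where the other pair differed by 14.7. For the 8 receptor genes, calls gained, lost or turned without these libraries or with the vomeronasal sum as covariate are given with that value. Their called values that moved by over 1.5 times are given as well.

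**Figure D1:**
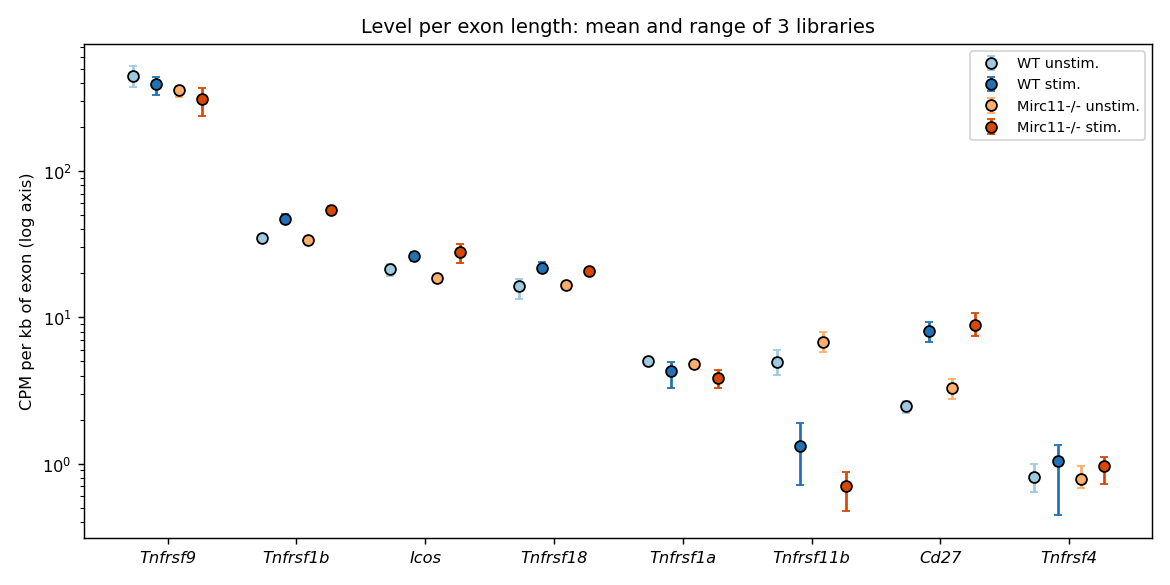
CPM per kilobase of exon (log axis) for each receptor gene in each group, as the mean (point) and the range (bar) of 3 libraries. Tnfrsf9 sits above 300 in each group mean, and the group means of the other genes lie between 0.702 and 54.4.

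Per kilobase of exon, the scale on which genes can be compared with each other, Tnfrsf9 was the highest of the 8 in every group, with group means of 448 CPM per kb in unstimulated and 394 in stimulated wild-type cells and 356 and 308 in the Mirc11-/- groups. Tnfrsf1b followed at 34.7, 46.6, 33.7 and 54.4 CPM per kb in the same order of groups, then Icos at 21.3, 26.2, 18.5 and 27.9, and Tnfrsf18 at 16.4, 21.9, 16.7 and 20.7. These 4 genes kept that order in all groups and no neighbours among them overlapped between libraries of a group. The lower 4 changed places. In unstimulated wild-type cells Tnfrsf1a and Tnfrsf11b were both at 4.99 CPM per kb, with overlapping libraries, above Cd27 at 2.47 and Tnfrsf4 at 0.806. In stimulated wild-type cells Cd27 led these 4 at 8.02, before Tnfrsf1a at 4.28, Tnfrsf11b at 1.33 and Tnfrsf4 at 1.04, the last pair with overlapping libraries. In stimulated Mirc11-/- cells Cd27 stood at 8.88 CPM per kb, Tnfrsf1a at 3.86, Tnfrsf4 at 0.966 and Tnfrsf11b at 0.702, and the last pair overlapped again.

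**Figure D2:**
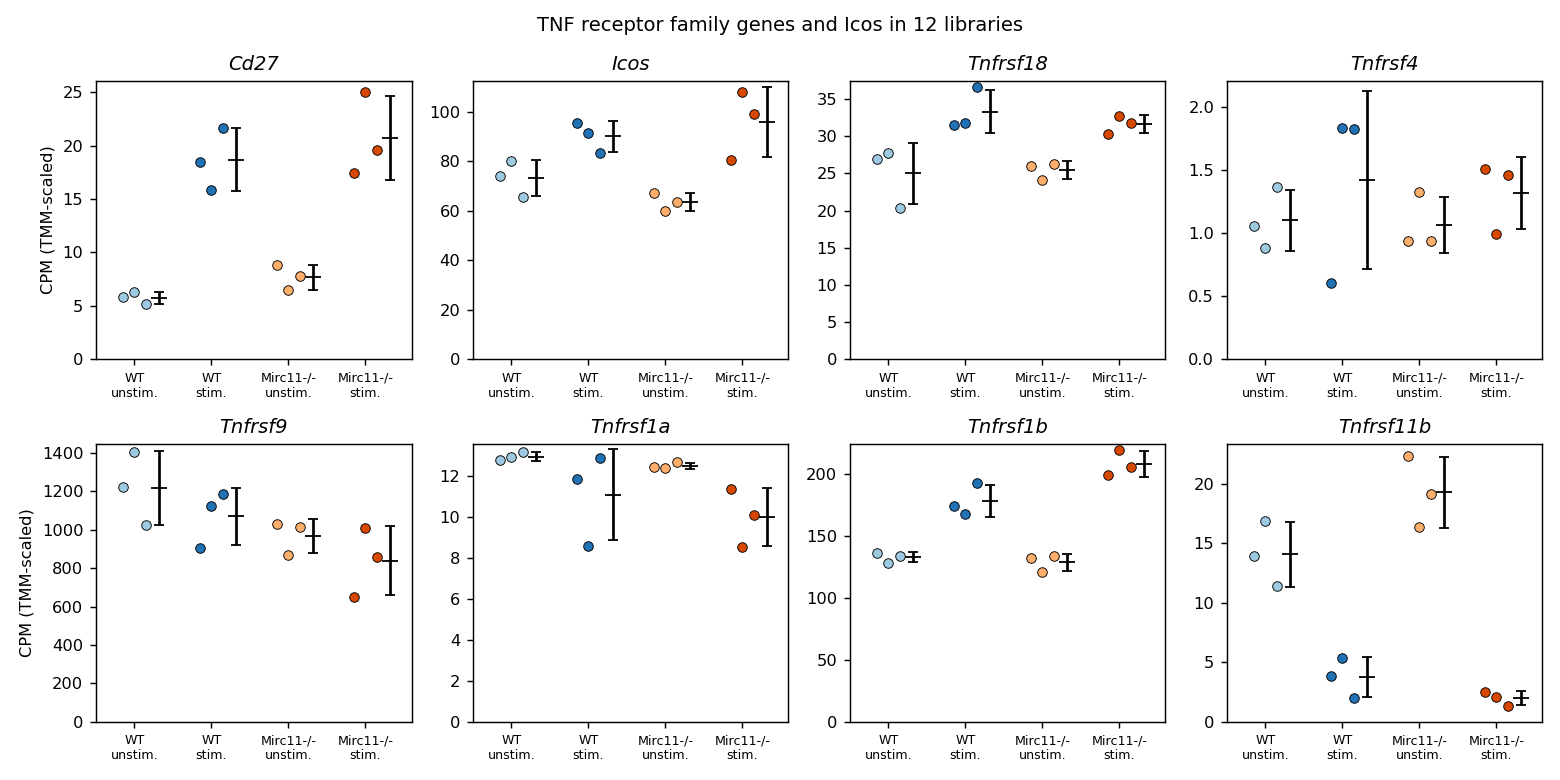
TMM-scaled CPM of each receptor gene in each of the 12 libraries (points) by group, with the group mean and SD beside them, on linear axes from 0. Cd27 and Tnfrsf1b are higher and Tnfrsf11b is lower in every stimulated library than in every unstimulated library.

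Of the 8 genes, 4 changed on NKG2D stimulation in wild-type cells and 5 in Mirc11-/- cells at an adjusted p below 0.05 (edgeR's quasi-likelihood test with Benjamini-Hochberg adjustment over all tested genes, as for every adjusted p here). Cd27, Tnfrsf1b and Tnfrsf18 rose and Tnfrsf11b fell in both genotypes, and Icos rose in the Mirc11-/- cells. Tnfrsf9, Tnfrsf4 and Tnfrsf1a passed in neither. The background was high: 31.8% of all tested genes passed in wild-type cells (16.1% higher, 15.7% lower) and 45.6% in Mirc11-/- cells (23.5% higher, 22.1% lower), so a call among the 8 was not in itself unusual. The median log2 difference of the 8 was 0.32 in wild-type and 0.31 in Mirc11-/- cells, against 0.02 and 0.03 over all genes. In bulk RNA a change in the share of cells that carry a transcript and a change in its amount per cell cannot be told apart.

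Cd27, whose product binds CD70, rose most among the 8. It was measured at 5.81, 6.26 and 5.17 CPM in unstimulated wild-type replicates 1 to 3 and at 18.5, 15.9 and 21.7 CPM in the stimulated ones. In Mirc11-/- cells it was measured at 8.77, 6.43 and 7.79 CPM unstimulated and 17.4, 25.1 and 19.6 CPM stimulated. Every stimulated library lay above every unstimulated one, in both genotypes. The rise was 3.26-fold in wild-type cells, a log2 difference of 1.70 ± 0.166 (SE, adjusted p = 6.48e-06, edgeR), and 2.69-fold in Mirc11-/- cells, 1.43 ± 0.165 (adjusted p = 1.83e-05). Cd27 lies within the span of Vamp1 on the opposite strand without shared exon bases, and Vamp1, a vesicle fusion protein gene, had log2 differences of 0.27 (adjusted p = 0.118) and 0.48 (adjusted p = 0.00735). The call held in both genotypes under each of the 22 alternative settings. With the vomeronasal covariate the Mirc11-/- value was 2.23 (adjusted p = 0.00847).

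Tnfrsf18 rose little. Its level was 26.9, 27.7 and 20.3 CPM in unstimulated and 31.5, 31.8 and 36.6 CPM in stimulated wild-type replicates 1 to 3. The Mirc11-/- libraries gave 26.0, 24.1 and 26.2 CPM unstimulated and 30.3, 32.7 and 31.7 CPM stimulated. The groups did not overlap in either genotype, and the unstimulated wild-type replicate 3 was the lowest of the 12 libraries. The log2 difference was 0.42 ± 0.111 (SE) in wild-type cells, with an adjusted p of 0.0115 by edgeR, and 0.31 ± 0.112 in Mirc11-/- cells, with an adjusted p of 0.0361. These calls were close to the threshold. Without unstimulated wild-type replicate 3 the wild-type value was 0.28 (adjusted p = 0.0555) and without stimulated wild-type replicate 3 it was 0.33 (adjusted p = 0.0643), in a range of 0.00554 to 0.0643 over 22 alternatives, while the Mirc11-/- call was lost in 11 of 22 alternatives, 8 of them the removal of 1 library, in a range of 0.0144 to 0.224 over all 22. Without stimulated wild-type replicate 1 the Mirc11-/- value was 0.30 (adjusted p = 0.0516). With the vomeronasal covariate it was 0.86, without passing the test (adjusted p = 0.107), and the wild-type value was 0.69 (adjusted p = 0.0103).

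Its neighbour Tnfrsf4 was expressed at a very low level. The counts were 13 to 36 per library, or 1.06, 0.879 and 1.36 CPM in unstimulated and 0.605, 1.84 and 1.83 CPM in stimulated wild-type replicates 1 to 3, and 0.938, 1.32 and 0.937 and 1.51, 0.990 and 1.46 CPM in the Mirc11-/- groups. All 4 groups overlapped, and stimulated wild-type replicate 1 was the lowest library of all. The log2 differences were 0.35 ± 0.372 (SE, adjusted p = 0.508) and 0.31 ± 0.392 (adjusted p = 0.543), with 95% intervals of -0.51 to 1.21 and -0.59 to 1.22, so that a change of the size seen for Tnfrsf1b would not have been detectable at this depth. Without stimulated wild-type replicate 1 the wild-type difference was 0.72, short of the threshold (adjusted p = 0.106).

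Tnfrsf9, the most abundant of the 8, did not pass the test in either genotype. It was measured at 1225, 1407 and 1023 CPM in unstimulated and 904, 1123 and 1188 CPM in stimulated wild-type replicates 1 to 3. The Mirc11-/- libraries gave 1028, 868 and 1014 CPM unstimulated and 650, 1008 and 860 CPM stimulated. The groups overlapped in both genotypes, and replicate 1 was the lowest of each stimulated group. The log2 difference was -0.18 ± 0.166 (SE, adjusted p = 0.429, edgeR) with a 95% interval of -0.57 to 0.20 in wild-type cells, and -0.21 ± 0.167 (adjusted p = 0.326, interval -0.59 to 0.18) in Mirc11-/- cells.

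Within each stimulated group, Tnfrsf9 ran opposite to the background reads. In stimulated wild-type replicates 1 to 3 the vomeronasal sum was 41.5, 26.1 and 24.8 CPM where Tnfrsf9 stood at 904, 1123 and 1188 CPM. In the stimulated Mirc11-/- replicates the sum was 85.4, 49.1 and 59.1 CPM and Tnfrsf9 650, 1008 and 860 CPM. With the log of that sum as a covariate the direction turned, to a log2 difference of 0.53 in wild-type cells (adjusted p = 0.0255, edgeR) and 1.18 in Mirc11-/- cells (adjusted p = 0.0238). Leaving out replicate 1 alone gave -0.08 for the wild-type group and -0.05 for the Mirc11-/- group, neither past the threshold. Over all 22 alternatives the adjusted p ranged from 0.0255 to 0.797 and from 0.0238 to 0.796. The covariate follows the stimulated groups closely, and its part in the Tnfrsf9 level cannot be told apart from stimulation with 3 libraries per group.

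**Figure D3:**
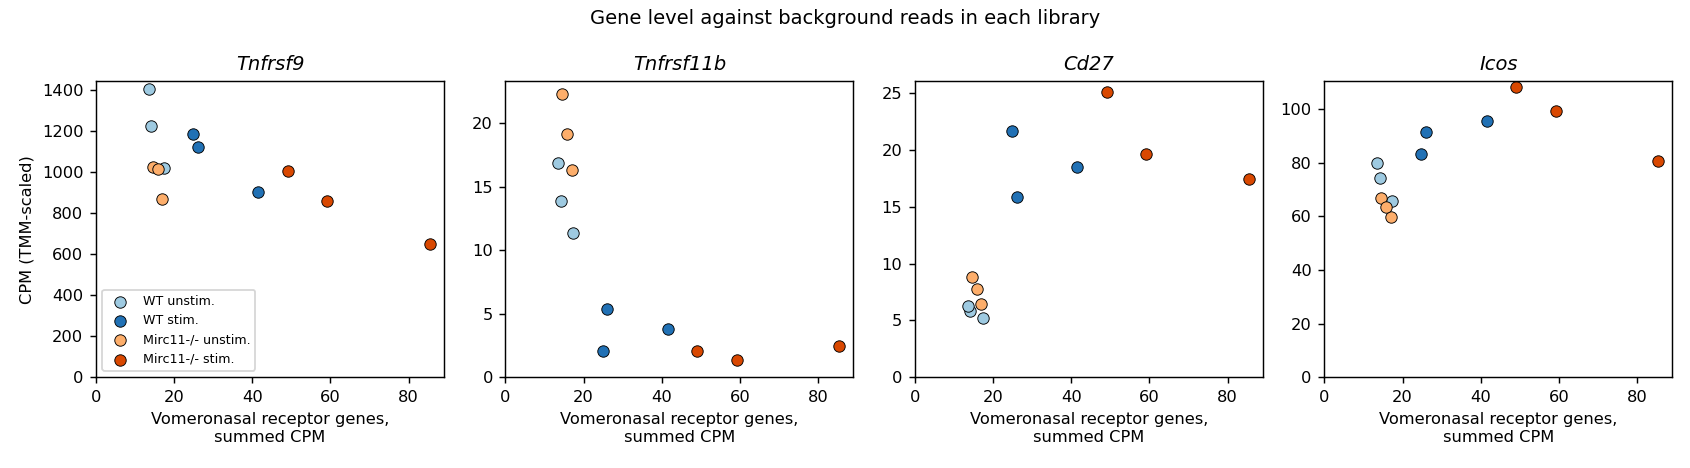
CPM of 4 receptor genes in each library against the summed CPM of 548 vomeronasal receptor genes, with points coloured by group. All unstimulated libraries lie at or below 17.4 on the horizontal axis and all stimulated ones at or above 24.8, and Tnfrsf9 is lowest in the stimulated Mirc11-/- library at 85.4.

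Of the receptors for TNF, Tnfrsf1b rose and Tnfrsf1a did not pass the test. Tnfrsf1b was measured at 136, 128 and 134 CPM in unstimulated and 174, 167 and 193 CPM in stimulated wild-type replicates 1 to 3. In Mirc11-/- cells the values were 132, 121 and 133 CPM unstimulated and 199, 219 and 205 CPM stimulated. No stimulated library overlapped an unstimulated one, and the 3 stimulated Mirc11-/- libraries were the highest of the 12. The rise was 1.34-fold in wild-type cells, log2 0.43 ± 0.0815 (SE, adjusted p = 0.00140, edgeR), and 1.62-fold in Mirc11-/- cells, log2 0.69 ± 0.0819 (adjusted p = 2.16e-05). Both calls held under each of the 22 alternatives.

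Tnfrsf1a, the death-domain receptor, lay at 12.8, 12.9 and 13.1 CPM in unstimulated wild-type replicates 1 to 3 and at 11.8, 8.56 and 12.9 CPM in the stimulated ones. The Mirc11-/- libraries gave 12.4, 12.4 and 12.6 CPM unstimulated and 11.4, 8.51 and 10.1 CPM stimulated. The wild-type groups overlapped, by replicate 3 of the stimulated group, and the Mirc11-/- groups did not. The log2 difference was -0.22 ± 0.142 (SE, adjusted p = 0.257) in wild-type and -0.32 ± 0.146 (adjusted p = 0.0884) in Mirc11-/- cells by edgeR. Without stimulated Mirc11-/- replicate 1 the latter was -0.42 (adjusted p = 0.0365), and without stimulated wild-type replicate 2 it was -0.33 (adjusted p = 0.0305), both past the threshold, in a range of 0.0305 to 0.243 over all alternatives.

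The decoy receptor gene Tnfrsf11b fell furthest. In wild-type replicates 1 to 3 it was measured at 13.9, 16.9 and 11.4 CPM unstimulated and 3.82, 5.35 and 2.03 CPM stimulated. In the Mirc11-/- cells it was measured at 22.3, 16.3 and 19.2 CPM unstimulated and 2.49, 2.10 and 1.35 CPM stimulated. All 6 stimulated libraries lay below all 6 unstimulated ones. The level was 3.75-fold lower after stimulation in wild-type cells, a log2 difference of -1.91 ± 0.282 (SE, adjusted p = 3.17e-04, edgeR), and 9.73-fold lower in Mirc11-/- cells, -3.28 ± 0.310 (adjusted p = 6.50e-06). With the vomeronasal covariate the values were -1.84 (adjusted p = 0.0493) and -3.16, the second no longer past the threshold (adjusted p = 0.123, the highest over 22 alternatives).

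Icos was at a middle level and rose past the threshold in the Mirc11-/- cells. It was measured at 74.2, 79.9 and 65.6 CPM in unstimulated and 95.5, 91.4 and 83.1 CPM in stimulated wild-type replicates 1 to 3. The Mirc11-/- values were 66.9, 59.8 and 63.6 CPM unstimulated and 80.5, 108 and 99.1 CPM stimulated. The groups did not overlap in either genotype. The log2 difference was 0.30 ± 0.110 (SE) in wild-type cells, just short of the threshold by edgeR (adjusted p = 0.0520), and 0.60 ± 0.110 in Mirc11-/- cells (adjusted p = 7.09e-04). In wild-type cells it passed in 8 of 22 alternatives, 3 of them the removal of 1 library, with an adjusted p of 0.0109 without stimulated Mirc11-/- replicate 1, which enters through the shared estimate of spread, and a range of 0.0109 to 0.221 over all 22. With the vomeronasal covariate the wild-type value was 0.54 and passed (adjusted p = 0.0377). The Mirc11-/- rise was 1.05 with the vomeronasal covariate, short of the threshold (adjusted p = 0.0602, the highest over 22 alternatives). The gene model Gm37039, listed as to be experimentally checked and lying within the span of Icos on the same strand but with 0 shared exon bases, fell in wild-type cells (log2 -0.97, adjusted p = 0.00187).

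**Figure D4:**
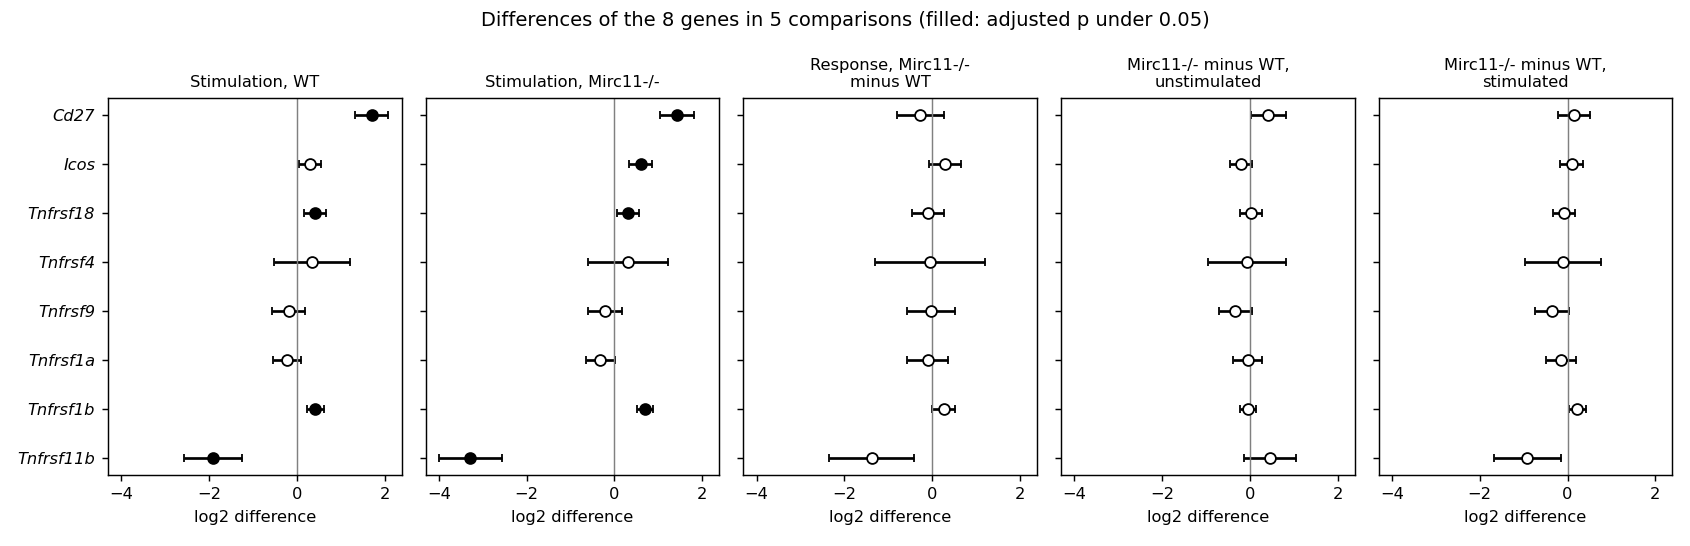
Log2 differences of the 8 receptor genes (points) with 95% intervals (bars) in 5 comparisons; filled points have an adjusted p below 0.05 over all tested genes. Points are filled in the panels of stimulation, and none is filled in the 3 panels that compare the genotypes.

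The stimulation comparisons in the 2 genotypes share no libraries. All 8 genes had the same sign in both, as had 80.1% of all tested genes. The 4 genes called in wild-type cells were called in the same direction in Mirc11-/- cells, which is 100% of the wild-type calls and 80% of the Mirc11-/- calls among the 8, against 80.3% and 56.1% over all genes. Stimulated and unstimulated libraries did not overlap for 5 of the 8 genes in wild-type cells and 6 in Mirc11-/- cells, where 49% and 54% of all tested genes did not overlap.

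The difference between the responses of the genotypes did not pass the test for any of the 8 genes, and it passed for 2 of 17457 genes in all, 0.0115%, with 1858 genes at an unadjusted p below 0.05. DESeq2 called 68 genes, 0 of them among the 8. Tnfrsf11b had the widest difference, -1.38 ± 0.419 (SE) on the log2 scale with a 95% interval of -2.34 to -0.41 and an adjusted p of 0.398 by edgeR. The unadjusted p was below 0.05 for Tnfrsf11b and Tnfrsf1b among the 8. Icos and Tnfrsf1b differed by 0.30 ± 0.155 (adjusted p = 0.481) and 0.27 ± 0.115 (adjusted p = 0.455), and Cd27 by -0.28 ± 0.232 (adjusted p = 0.620). Although Icos was called in one genotype and not in the other, a different response of the genotypes was not shown. With the vomeronasal covariate the sign of the difference turned for Tnfrsf9 (0.66), Tnfrsf4 (0.40), Tnfrsf18 (0.16) and Cd27 (0.12), all at an adjusted p of 1.

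In unstimulated cells 0 of the 8 genes differed between Mirc11-/- and wild type by edgeR, where 1.11% of all genes did. Among the 8 only Cd27 had an unadjusted p below 0.05, as had 1607 of all 17457 tested genes. DESeq2 called none of the 8 either. Cd27 was higher in each of the 3 Mirc11-/- libraries than in each wild-type one, at 7.67 ± 1.18 against 5.75 ± 0.548 CPM (mean ± SD, n = 3), with a log2 difference of 0.42 ± 0.172 (SE, adjusted p = 0.434, edgeR). Tnfrsf1a was lower in each Mirc11-/- library, with a log2 difference of -0.05 (adjusted p = 0.986), a gap smaller than its SE in the fit. These 2 of 8 genes without overlap compare with 17.8% of all genes. The T-cell markers Cd3e, Cd3d, Cd3g, Trac, Cd4, Cd8a, Cd8b1, Cd5 and Foxp3, whose cells carry Cd27 too, summed to 39.5 to 67.0 CPM in unstimulated wild-type and 68.2 to 114 CPM in unstimulated Mirc11-/- libraries, and their part in the Cd27 level was not tested. None of the 9 was at 0 in all libraries of a group, and none passed the test between these groups. Their median log2 difference was 0.55, against 0.01 over all genes. The libraries of 4 of the 9 did not overlap between these groups, against 17.8% of all genes.

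In stimulated cells 0 of the 8 genes differed between the genotypes by edgeR, against 9.02% of all genes. An unadjusted p below 0.05 was found for 2 of the 8, and for 5257 of all 17457 tested genes. Tnfrsf1b was higher in every Mirc11-/- library, at 208 ± 10.3 against 178 ± 13.1 CPM (mean ± SD, n = 3), with a log2 difference of 0.22 ± 0.0814 (SE, adjusted p = 0.0914). It was the 1 gene of the 8 without overlap, where 32.6% of all genes had none. Tnfrsf11b was at 1.98 ± 0.581 against 3.73 ± 1.66 CPM, a log2 difference of -0.92 ± 0.331 (adjusted p = 0.0932) with overlapping libraries. DESeq2 called both, with adjusted p of 0.0488 for Tnfrsf1b and 0.0265 for Tnfrsf11b. Without stimulated wild-type replicate 3, the library with the lowest Tnfrsf11b of its group, the edgeR value for Tnfrsf11b was -1.21 (adjusted p = 0.0347). Over all alternatives the adjusted p ranged from 0.0265 to 0.950 for Tnfrsf11b and from 0.0488 to 0.777 for Tnfrsf1b. The log2 differences of Tnfrsf9 were -0.33 and -0.35 in unstimulated and stimulated cells, with overlapping libraries and adjusted p of 0.617 and 0.172. The 95% intervals for Tnfrsf9 were -0.71 to 0.06 and -0.74 to 0.03. With the vomeronasal covariate the stimulated value turned to 0.39, above that interval (adjusted p = 0.819), and without stimulated Mirc11-/- replicate 1 it was -0.20 (adjusted p = 0.472). The covariate also turned the small differences of Tnfrsf18, to 0.22, and Tnfrsf4, to 0.36, neither past the threshold. Of the receptors with a seed word, Tnfrsf1a differed by -0.15 in stimulated cells (adjusted p = 0.497).

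Other cell types could contribute these transcripts, and their markers were read in the same libraries. B-cell markers summed to 57.1 to 71.9 CPM in unstimulated and 105 to 128 CPM in stimulated wild-type libraries and to 64.2 to 73.2 and 102 to 113 CPM in the Mirc11-/- ones. Only 3 of these 6 markers were high enough to be tested, and 2 were at 0 in all unstimulated wild-type libraries. Of the 3 tested, 2 rose on stimulation in wild-type and 3 in Mirc11-/- cells. Over all tested genes 16.1% and 23.5% rose in the respective genotype. Macrophage, monocyte and dendritic-cell markers summed to 12.9 to 14.6 and 20.3 to 25.5 CPM in wild-type and to 10.3 to 13.5 and 20.4 to 21.9 CPM in Mirc11-/- libraries. Here 5 of 9 markers were high enough to be tested, and 1 was at 0 in all unstimulated wild-type libraries. Of the 5 tested, 1 rose on stimulation in wild-type and 3 in Mirc11-/- cells. T-cell markers after stimulation summed to 46.5 to 73.3 CPM in wild-type and 75.9 to 98.7 CPM in Mirc11-/- libraries. Of these 9 markers 1 rose on stimulation in each genotype. Between the stimulated genotypes 1 of the 9 passed the test, higher in Mirc11-/-, where 9.02% of all tested genes passed in either direction. Osteoprotegerin is typically a stromal and endothelial product: the 8 stromal and endothelial markers summed to 336 to 424 and 434 to 491 CPM in wild-type and to 190 to 243 and 265 to 303 CPM in Mirc11-/- libraries, with 4 and 3 of the 8 at 0 in all unstimulated libraries of the respective genotype. Almost all of that sum was Pecam1, which leukocytes express too. Only 3 of these 8 markers were high enough to be tested, and 2 of the 3 rose on stimulation in each genotype. The part of these cell types in the changes of Tnfrsf11b and the other receptor genes was not tested.

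**Figure D5:**
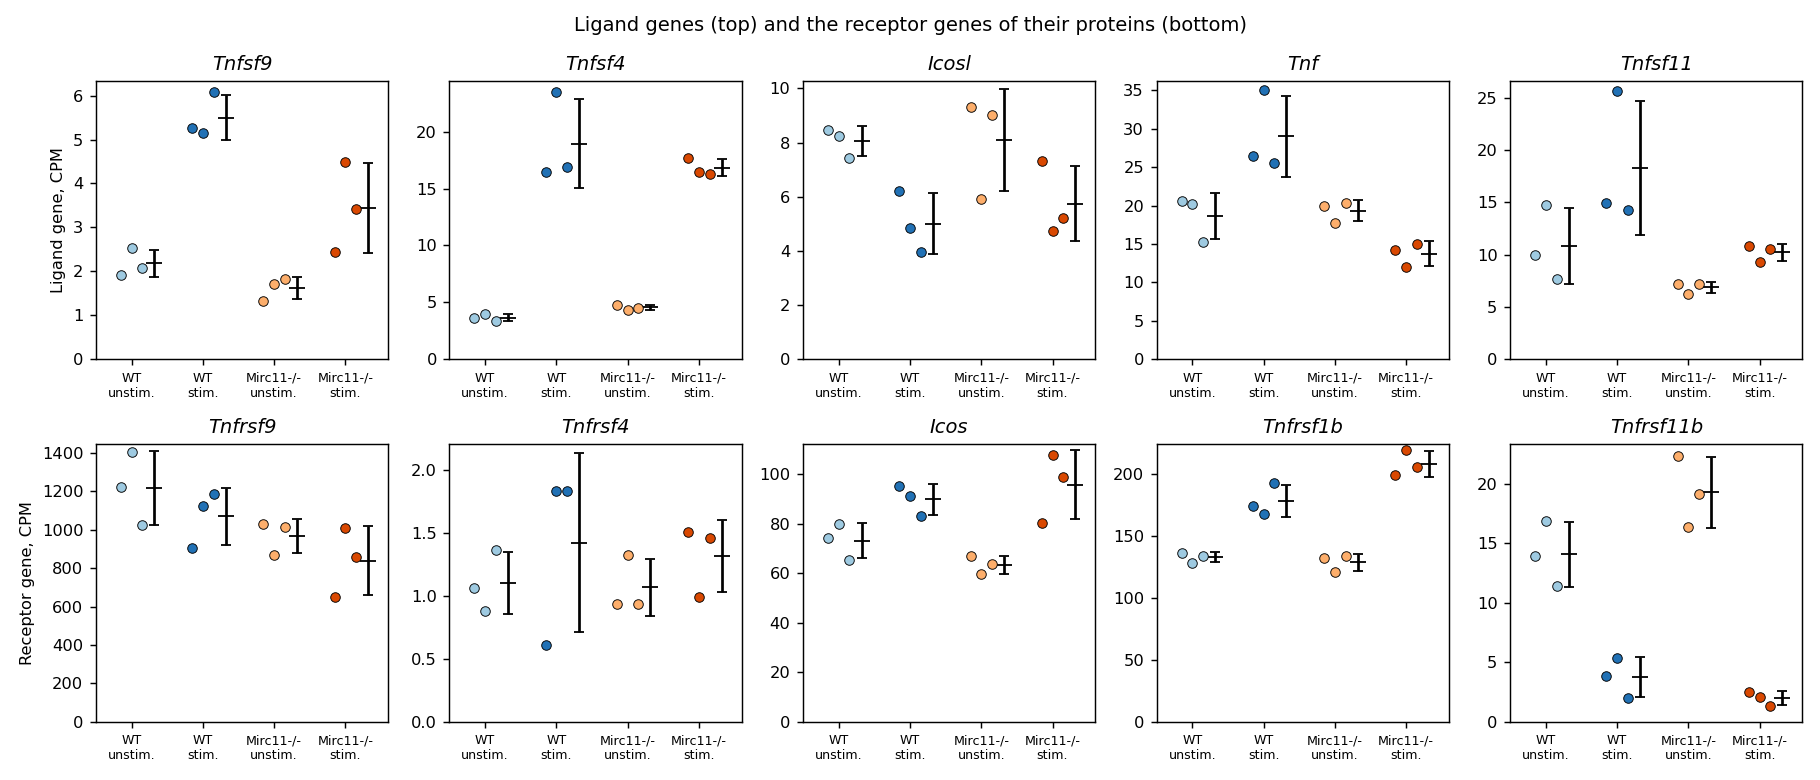
CPM of 5 ligand genes (top row) and of a receptor gene for each ligand (bottom row) in 12 libraries by group, with the group mean and SD. Tnfsf4 and Tnfsf9 are higher after stimulation in both genotypes while Tnfrsf4 and Tnfrsf9 overlap between groups, and Tnf is higher after stimulation in wild-type cells and lower in Mirc11-/- cells.

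Among the ligand genes of these receptors Tnfsf4 and Tnfsf9 rose in both genotypes, and Tnf rose in wild-type and fell in Mirc11-/- cells. The single calls of these genes, and of the other gene lists below, were not read under the alternative settings. With the vomeronasal covariate, calls over all genes fell from 5559 to 3865 for stimulation of wild-type and from 7958 to 560 of Mirc11-/- cells. Between the stimulated genotypes they fell from 1575 to 30. Of 9 ligand genes 7 were tested. In wild-type cells 4 rose and 1 fell, and in Mirc11-/- cells 2 rose and 3 fell. Over all tested genes 31.8% and 45.6% were called in the respective genotype. The median log2 difference of the 7 was 0.64 and -0.45, against 0.02 and 0.03 over all genes. Tnfsf4, encoding the OX40 ligand, went from 3.63 ± 0.299 to 18.9 ± 3.92 CPM (mean ± SD, n = 3) in wild-type and from 4.54 ± 0.198 to 16.8 ± 0.752 CPM in Mirc11-/- cells, log2 differences of 2.38 ± 0.146 (SE, adjusted p = 1.40e-07, edgeR) and 1.89 ± 0.146 (adjusted p = 5.86e-07). Its receptor Tnfrsf4 stayed below 2 CPM in each library. Tnfsf9, encoding the 4-1BB ligand, rose from 2.18 ± 0.313 to 5.50 ± 0.517 CPM and from 1.61 ± 0.257 to 3.45 ± 1.03 CPM, by 1.34 (adjusted p = 5.40e-04) and 1.10 (adjusted p = 0.00250) on the log2 scale.

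Tnf, the ligand of Tnfrsf1a and Tnfrsf1b, stood at 18.7 ± 2.98 CPM before and 29.0 ± 5.25 CPM after stimulation of wild-type cells, a rise (log2 0.64 ± 0.144, adjusted p = 0.00428), and it fell from 19.3 ± 1.36 to 13.7 ± 1.59 CPM in Mirc11-/- cells (log2 -0.49 ± 0.150, adjusted p = 0.0155). In stimulated cells it was lower in Mirc11-/-, by a log2 difference of -1.08 ± 0.148 (adjusted p = 0.00137), whereas the test of the difference in response gave -1.13 ± 0.208 with an adjusted p of 0.167. Lta, another ligand of both receptors, fell in Mirc11-/- cells (log2 -1.11, adjusted p = 0.0151).

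Of the ligands that osteoprotegerin binds, Tnfsf11 (RANKL) rose in wild-type cells from 10.8 ± 3.64 to 18.3 ± 6.38 CPM (log2 0.77, adjusted p = 0.0290). The wild-type groups overlapped. In Mirc11-/- cells Tnfsf11 was measured at 7.17, 6.24 and 7.20 CPM unstimulated and 10.8, 9.26 and 10.5 CPM stimulated in replicates 1 to 3, higher in every stimulated library, with a log2 difference of 0.57 that did not pass (adjusted p = 0.0921), and the test of the difference in response gave -0.20 (adjusted p = 0.821). Tnfsf10 (TRAIL) fell in Mirc11-/- cells from 56.2 ± 3.84 to 41.2 ± 5.64 CPM (log2 -0.45, adjusted p = 0.00324). In unstimulated cells Tnfsf10 was the 1 ligand gene of the 7 tested that differed between genotypes, where 1.11% of all tested genes did. It was higher in Mirc11-/- by 0.54 on the log2 scale (adjusted p = 0.0204, edgeR). The difference in response passed for 0 of the 7 ligand genes. Icosl fell in wild-type cells, from 8.47, 8.24 and 7.42 to 6.19, 4.84 and 3.96 CPM in replicates 1 to 3 (log2 -0.68, adjusted p = 0.0246) and had a value of -0.50 (adjusted p = 0.0735) in Mirc11-/- cells. Cd70, the ligand of Cd27, had 0 counts in all 6 unstimulated libraries, 5, 12 and 7 counts in stimulated wild-type replicates 1 to 3 and 4, 3 and 2 in the stimulated Mirc11-/- ones, and it was too low to be tested. Tnfsf18, the ligand of Tnfrsf18, had at most 3 counts in any library.

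Among 14 adaptor genes downstream of the TNF receptors, 6 rose and 2 fell in wild-type cells, and 5 rose and 4 fell in Mirc11-/- cells (median log2 difference 0.18 and -0.03). That is 8 and 9 of 14 genes called, where 31.8% and 45.6% of all tested genes were. Traf1, an adaptor bound by 4-1BB and Tnfrsf1b among others, rose from 101 ± 7.99 to 241 ± 13.5 CPM (log2 1.25, adjusted p = 3.18e-07, edgeR) and from 84.2 ± 4.97 to 215 ± 2.57 CPM (log2 1.35, adjusted p = 9.39e-08). Birc2, a ubiquitin ligase of the receptor complex, rose by 1.02 and 1.05 and the adaptor gene Traf2 by 0.75 and 0.64 on the log2 scale in wild-type and Mirc11-/- cells. Casp8 (log2 -0.41 and -0.56) and Ripk1 (-0.34 and -0.45), which act at death-domain receptors, fell in both genotypes. In stimulated cells 3 of the 14 were lower in Mirc11-/- than in wild type, Birc3 (log2 -0.33), Cflar (-0.36) and Ripk1 (-0.33), and 0 were higher, where 9.02% of all tested genes differed in either direction.

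Of 10 genes of NF-kB and survival, 5 rose and 3 fell in each genotype (median log2 difference 0.27 in wild-type and 0.14 in Mirc11-/- cells). Among all tested genes 31.8% were called in wild-type and 45.6% in Mirc11-/- cells. Nfkb2 and Relb, the subunits of the non-canonical pathway, rose by 1.37 and 1.46 in wild-type cells and by 1.09 and 1.33 in Mirc11-/- cells, on the log2 scale. The survival genes split: Bcl2a1b and Bcl2a1d, near-identical copies whose reads may have been divided between them, rose by 1.39 and 1.35 in wild-type and by 1.27 and 1.35 in Mirc11-/- cells. Bcl2 fell by 1.23 and 1.57 on the log2 scale, and Bcl2l1 was 1.67-fold and 2.46-fold lower. In stimulated cells Bcl2, Bcl2a1d and Bcl2l1 were lower in Mirc11-/- cells, with log2 differences of -0.36, -0.56 and -0.77. In that comparison 9.02% of all tested genes differed in either direction.

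Of 10 genes of Icos signalling and of the control of Icos mRNA, 2 rose and 2 fell in wild-type cells, and 2 rose and 3 fell in Mirc11-/- cells (median log2 difference 0.09 and 0.02). These counts were near the shares called over all tested genes, 31.8% and 45.6%. Pik3cd, the leukocyte PI3K catalytic subunit, fell from 419, 420 and 394 to 218, 222 and 224 CPM in wild-type and from 435, 371 and 398 to 204, 215 and 199 CPM in Mirc11-/- replicates 1 to 3, log2 -0.89 (adjusted p = 4.62e-06, edgeR) and -0.96 (adjusted p = 1.54e-06). The adaptor gene Grb2 fell by 0.38 and 0.35 on the log2 scale. Rc3h2, of the roquin family that degrades Icos mRNA, rose by 0.23 and 0.39. Pik3ca rose in wild-type cells (0.26) and Pik3r5, a PI3K regulatory subunit, fell in Mirc11-/- cells (-0.36), where it was also lower than in stimulated wild-type cells (-0.39, adjusted p = 0.0453).

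Other receptors of the TNF family moved in both directions. Of 21 further family genes 14 were tested. In wild-type cells 3 rose and 5 fell, and in Mirc11-/- cells 4 rose and 4 fell, where 31.8% and 45.6% of all tested genes were called. Tnfrsf23, a decoy receptor gene of the mouse, and its neighbour Tnfrsf26 rose by 2.59 and 1.56 in wild-type and by 2.32 and 1.91 in Mirc11-/- cells, on the log2 scale. Tnfrsf8 (CD30) fell from 157 ± 29.7 to 64.2 ± 16.6 CPM and from 84.1 ± 14.9 to 19.2 ± 3.44 CPM, log2 -1.29 (adjusted p = 5.89e-04) and -2.13 (adjusted p = 1.52e-05), and Tnfrsf21 fell by 0.92 and 1.20. In stimulated cells Tnfrsf8 and Tnfrsf12a were lower in Mirc11-/- than in wild type, with edgeR log2 differences of -1.74 (adjusted p = 0.00120) and -1.51 (adjusted p = 0.0185). Of the 8 receptor genes described above 0 passed there, against 9.02% of all tested genes. Tnfrsf8 was also lower before stimulation, at 84.1 ± 14.9 CPM in Mirc11-/- and 157 ± 29.7 CPM in wild-type cells. In unstimulated cells 0 of the 14 genes passed the test between the genotypes. No gene of these lists passed the test of the difference in response.

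The genes whose log2 CPM ran most like each receptor over the 12 libraries are given as a description of pattern, over libraries that share the stimulation. Among 9558 genes whose mean log2 CPM was 2 or more, Cd27 ran closest to Tpra1 (r = 0.990), Ncf1 (0.990) and Dapk2 (0.989), Tnfrsf11b to Serpina3f (0.986), Serpina3g (0.985) and Socs2 (0.979), and Tnfrsf1b to Hip1r (0.977), Zscan2 (0.976) and Tmprss6 (0.976). Icos was closest to Crem (0.960), Rap2a (0.959) and Gtdc1 (0.956), and Tnfrsf18 to Mpi (0.956), Abcd4 (0.955) and E4f1 (0.944). Tnfrsf9 was closest to Alpk2 (0.956), Rcan3 (0.947) and Mrpl53 (0.946), Tnfrsf1a to Usp20 (0.882), Setd5 (0.868) and Tet2 (0.852), and the low Tnfrsf4 to Malsu1 (0.856), Pank4 (0.785) and Nup98 (0.730). Between the receptor genes themselves r was 0.943 for Cd27 with Tnfrsf1b, -0.967 for Tnfrsf11b with Tnfrsf1b and -0.899 for Cd27 with Tnfrsf11b. The values of Tnfrsf9 with the other 7 lay between -0.382 and 0.390.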

How the data were processed

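Polyadenylated RNA was sequenced in 12 libraries (Trizol RNA and Illumina TruSeq RNA, per the labels' protocols). The tools of the authors named in the submitters' processing notes are RSEM 1.3.0, Bowtie2 2.2.8, Trim Galore 0.4.1 and bcl2fastq, and the genome is GRCm38. The deposited values were RSEM expected counts per gene, not scaled between libraries, and all were whole numbers, so they were used as they stood. Strand setting and annotation release are not given in the sources used here. Gene positions, exons and 3′ untranslated regions came from the GRCm38 annotation supplied, and the mature microRNA and promoter sequences from RefSeq.

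Genes were filtered with filterByExpr, scaled by TMM and tested with edgeR 4.0.16 (robust quasi-likelihood, R 4.3.3), with 1 mean per group over all 12 libraries and 8 residual degrees of freedom. P values are two-sided and Benjamini-Hochberg adjusted across the genes tested, at a threshold of 0.05. Intervals are the estimate with its SE at 95% on those 8 degrees of freedom, and they are wider than the edgeR test implies. For Tnfrsf1b the interval of the difference in response was -0.00046 to 0.531, at an unadjusted p of 0.0374 by edgeR. Log2 CPM for the likeness used a prior count of 2. Replicates are biological per the series' text, which does not say whether they share animals or days, and the labels give no batch. Alternatives were other scalings, filters, samples, a replicate block, a background covariate, limma voom (limma 3.58.1), DESeq2 1.42.0 and the removal of each library. The fit was tested on simulated counts.

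The genes, the lists and the tests were chosen with earlier results of these data known. Named genes were the 8 receptors, up to 4 genes of each list and comparison with the smallest p past the threshold, and the 3 genes most like each receptor; the remaining ligands (Tnfsf11, Tnf in Mirc11-/- cells, Cd70, Tnfsf18), the CD28 relatives and the genes overlapping a receptor were named after their values were seen.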

Additional observations from a re-analysis of the deposited data

How the results depend on the processing

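Among the results of the 8 genes, a value under an alternative setting kept its side of the threshold, and its direction where called, 825 times, lost the call 15 times, gained one 14 times and reversed 2 times. Both reversals were Tnfrsf9 with the vomeronasal covariate (log2 0.53 in wild-type and 1.18 in Mirc11-/- cells); the cause was not tested. With that covariate 6 of the 8 genes were called on stimulation of wild-type cells in place of 4 (Tnfrsf9 and Icos added) and 3 in Mirc11-/- cells in place of 5 (Cd27, Tnfrsf1b and Tnfrsf9), and over all genes 3865 in place of 5559 and 560 in place of 7958, 0 in place of 2 for the difference in response and 30 in place of 1575 for the genotypes after stimulation. DESeq2 called 68 genes for the difference in response, and 382 unstimulated and 2366 stimulated between the genotypes, with 2 of the 8 genes in the last; without the filter 47 genes were called for the difference in response. Fitting only the groups compared called 328 and 215 genes between the genotypes. The median of all genes moved by over 0.1 under no filter alone, to 0.17 and 0.77 for stimulation in wild-type and Mirc11-/- cells, 0.16 for the difference in response and 0.25 for the genotypes after stimulation.

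Leaving out 1 library at a time gave 3 to 5 calls among the 8 genes for stimulation in wild-type cells, 4 to 6 in Mirc11-/- cells and 0 to 1 between the genotypes after stimulation, the 1 without stimulated wild-type replicate 3. Over all genes it gave 0 to 19 calls for the difference in response, 72 to 404 between unstimulated and 337 to 2397 between stimulated genotypes.

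Replicate numbers are shared across groups, but same-numbered libraries did not deviate together throughout. Correlations of their deviations ran from -0.07 to 0.23 within a genotype and from -0.15 to 0.22 between genotypes. Within a genotype 9 of 12 libraries correlated best with their own number. In wild-type cells these were 3 of 3 unstimulated and 3 of 3 stimulated libraries, and in Mirc11-/- cells 2 of 3 and 1 of 3. With the replicate block over all libraries 4 and 5 of the 8 genes were called on stimulation, as without it, and 0 in each other comparison, with 5696, 8070, 3, 176 and 2142 genes in all. With the block within genotype 5 and 4 were called, Icos gaining the wild-type call and Tnfrsf18 losing that in Mirc11-/- cells, and 13 genes for the difference in response. With 3 libraries per group and 13 to 36 counts of Tnfrsf4, small changes of that gene were beyond the depth.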

Other observations

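Of 4 CD28-family relatives of Icos 3 were tested, and Ctla4 and Pdcd1 rose on stimulation in both genotypes. Of all tested genes 16.1% rose in wild-type and 23.5% in Mirc11-/- cells. Ctla4, an inhibitory receptor for the ligands of CD28, rose on stimulation from 17.2 ± 2.63 to 56.3 ± 20.9 CPM (mean ± SD, n = 3) in wild-type cells, a log2 difference of 1.72 ± 0.339 (SE, adjusted p = 0.00397, edgeR), and from 10.9 ± 1.80 to 41.4 ± 15.1 CPM in Mirc11-/- cells, 1.92 ± 0.355 (adjusted p = 0.00178). Pdcd1, encoding the inhibitory receptor PD-1, rose from 0.279 ± 0.167 to 1.19 ± 0.203 CPM and from 0.336 ± 0.101 to 1.72 ± 0.245 CPM. Its log2 differences were 2.02 (adjusted p = 0.00137) and 2.34 (adjusted p = 3.11e-04) by edgeR. Its unstimulated level was very low, as 3 counts make 0.118 to 0.189 CPM in the unstimulated libraries. The part of background reads in the Pdcd1 rise was not tested. Cd28 was abundant, at 148 ± 17.9 and 173 ± 4.44 CPM in wild-type and 153 ± 14.2 and 180 ± 6.98 CPM in Mirc11-/- cells. Its log2 differences of 0.23 (adjusted p = 0.0814) and 0.23 (adjusted p = 0.0626) did not pass by edgeR. The groups did not overlap, as for 49% and 54% of all tested genes. Btla was too low to be tested. None of the 3 tested relatives passed the test between the genotypes or of the difference in response. Unstimulated Ctla4 was at 11.4, 8.96 and 12.5 CPM in Mirc11-/- and 16.5, 20.1 and 14.9 CPM in wild-type replicates 1 to 3 (log2 -0.64, adjusted p = 0.696, edgeR). These libraries did not overlap, as for 17.8% of all tested genes. Stimulated Pdcd1 was higher in every Mirc11-/- library (log2 0.54, adjusted p = 0.275), in a comparison where 32.6% of all tested genes did not overlap.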
